A study of Homo sapiens with 6 samples.

Results

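The genes described here were 10 genes of actin-based contraction that are known targets of serum response factor (SRF), namely ACTA2, TAGLN, CNN1, MYL9, TPM1, TPM2, ACTN1, VCL, CALD1 and FLNA. Members were matched by symbol with no use of their values, and all 10 were found among the 25349 genes of the count table. The members and the gene lists below were, however, chosen with earlier results of these data known. Their counts beside those of all tested genes are therefore descriptive only. SCC-9, an established line from a squamous cell carcinoma of the human tongue, received 10 nM of either a nonspecific siRNA (siNC) or an siRNA directed at MKI67 exon 7 (siE7) on day 0, and the same dose after passaging on day 2. All cells grew in a DMEM and Ham's F12 mixture with fetal bovine serum and hydrocortisone, RNA was purified on day 4, and 3 libraries of each group were sequenced. MKI67 encodes the proliferation marker Ki67, and its full-length isoform carries exon 7. The methods describe 3 siRNAs to exon 7 without stating which of them these libraries received, all samples are of a single cell line, and no source says whether the libraries came from separate cultures. The p-values therefore measure the spread between these libraries, which may be technical.

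Contractile tension in cells comes from myosin II filaments that pull on actin filaments bundled by alpha-actinin, stabilised by tropomyosin and anchored at focal adhesions. SRF binds a DNA element named the CArG box. Its cofactors MRTFA and MRTFB are held back by monomeric actin and enter the nucleus when actin polymerises, so that SRF activity follows the state of actin, while a second group of cofactors, the ternary complex factors ELK1, ELK3 and ELK4, links SRF to growth factor signals and the immediate early genes. In epithelial cells the cytoskeletal members of the programme, such as ACTN1, VCL and FLNA, serve adhesion and cell shape, whereas ACTA2, TAGLN and CNN1 are best known from smooth muscle and myofibroblasts.

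The libraries held 25608192 to 29550264 counts on genes, and MKI67 had 25695 to 28445 counts with siNC and 3297 to 3436 with siE7, a log2 fold change of -3.21 (edgeR adjusted p = 6.7e-08). Levels are counts scaled to library size (CPM) with TMM factors, a log2 fold change is siE7 over siNC, and adjusted p-values are those of the quasi-likelihood test in edgeR, adjusted by the Benjamini-Hochberg method over the 14661 genes that passed a filter on low counts. A gene was called where its adjusted p was under 0.05, and a called gene whose log2 fold change lay above 1 or below -1 was a differentially expressed gene (DEG). siE7 replicate 1 stood apart, with a chi-square per degree of freedom of 61.1 and 72.7 against the other siE7 libraries, where other pairs of a group gave 5.54 to 6.22. Where a call or a count changed without this library, the value without it is given as well. The 10 squamous epithelial markers (KRT5, KRT14, TP63 and others) summed to 21448 to 27956 CPM over the 6 libraries. Of these, 1 was called higher and 5 lower, beside 18.0% and 16.0% of all tested genes, and KRT5 and TP63 were among the lower. Without siE7 replicate 1 the counts were 2 and 7, beside 28.9% and 29.5%. The 10 fibroblast markers summed to 21.3 to 26.2 CPM with 0 of the 3 tested called, and 2 to 4 of them were at 0 in each library. DCN, a fibroblast marker that failed the filter, was called higher by DESeq2, with no filter on low counts, without any 1 of the siNC libraries and without siE7 replicate 1. Of the smooth muscle markers both tested genes, MYH11 and SYNPO2, were higher with siE7, though DESeq2 did not call SYNPO2. Their list summed to 108 to 114 CPM with siNC and 164 to 179 CPM with siE7, of which MYH11 made up 107 to 113 and 162 to 178 CPM (6.0% of its exon bases are shared with NDE1 on the other strand), and DES, LMOD1 and ACTG2 lay at 0 to 0.227 CPM in each library.

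Of the 10 genes, 9 passed the filter, 4 were called lower and 1 was called higher with siE7, and 4 were not called. ACTN1, FLNA, TPM1 and VCL fell, and MYL9 rose. Over all 14661 tested genes 34.0% were called, with 18.0% higher and 16.0% lower. ACTN1 and FLNA were also DEGs, against a background of 4.84% of tested genes that were DEGs lower with siE7 and 7.38% that were DEGs higher. The log2 fold changes of the 9 had a median of -0.20, beside 0.08 over all tested genes. No overlap between the groups was seen for 5 of the 9 and for 47.6% of all tested genes. Without siE7 replicate 1, 6 of the 9 were called, with 58.4% of 15011 tested genes called, 28.9% higher and 29.5% lower. These are bulk libraries, so fewer cells of a kind and less RNA per cell cannot be told apart.

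ACTN1 (ENSG00000072110.16, chromosome 14 of GRCh38, 68874128 to 68979440, minus strand) encodes alpha-actinin-1, which crosslinks actin filaments in stress fibres and at focal adhesions. Its level was 4938, 5036 and 5155 CPM in siNC replicates 1 to 3 and 2263, 1884 and 1669 CPM in siE7 replicates 1 to 3. Each siE7 library lay below every siNC library, and the fitted level was 2.60-fold lower (log2 fold change -1.38, standard error 0.12, edgeR adjusted p = 1.7e-05). This was the largest change among the members, and it lay between -1.57 and -1.22 over 13 alternative settings. FLNA (ENSG00000196924.19, chromosome X, 154348524 to 154374634, minus strand) encodes filamin A, which joins actin filaments into networks and ties them to membrane receptors. It had 2117, 2155 and 2266 CPM with siNC and 1365, 981 and 920.4 CPM with siE7. All siE7 libraries were lower, with replicate 1 the highest of them. Its log2 fold change of -1.001 (standard error 0.15, edgeR adjusted p = 4.2e-04) stood just past the fold limit of a DEG, and was -1.26 without siE7 replicate 1 and -0.84 without composition scaling.

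TPM1 (ENSG00000140416.23, chromosome 15, 63042620 to 63071915, plus strand) encodes a tropomyosin that lies along actin filaments and sets which myosins and severing proteins reach them. Its levels were 406, 411 and 404 CPM with siNC and 195, 225 and 219.9 CPM with siE7. The groups were far apart and the spread within each was small, and the level fell 1.91-fold (log2 fold change -0.93, standard error 0.11, edgeR adjusted p = 8.1e-05). VCL (ENSG00000035403.18, chromosome 10, 73995193 to 74121363, plus strand) encodes vinculin, which couples talin in focal adhesions and catenins in cell junctions to actin. It had 169, 169 and 179 CPM with siNC and 104, 98.8 and 93.4 CPM with siE7, again without overlap, and fell 1.75-fold (log2 fold change -0.80, standard error 0.11, edgeR adjusted p = 2.1e-04). The exons of VCL overlap those of AP3M1 on the other strand over 11.1% of their length, and AP3M1 was at 9.23 CPM on average. For all 4 of these genes the exact two-sided permutation test over the libraries gave p = 0.10, the smallest that 3 against 3 allow.

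MYL9 (ENSG00000101335.10, chromosome 20, 36541497 to 36551447, plus strand) encodes a regulatory light chain of myosin II, whose phosphorylation switches contraction on. Its levels were 22.2, 24.7 and 24.2 CPM with siNC and 41.3, 29.96 and 33.8 CPM with siE7. Each siE7 library lay above every siNC library, with replicate 1 the highest, and the rise was 1.48-fold (log2 fold change 0.56, standard error 0.14, edgeR adjusted p = 0.012, exact permutation p = 0.10). The call of MYL9 was lost when siNC replicate 1 or siNC replicate 3 was left out (edgeR adjusted p = 0.069 and 0.053), and without siE7 replicate 1 its log2 fold change was 0.37 with an adjusted p of 5.7e-04 by edgeR.

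**Figure D1:**
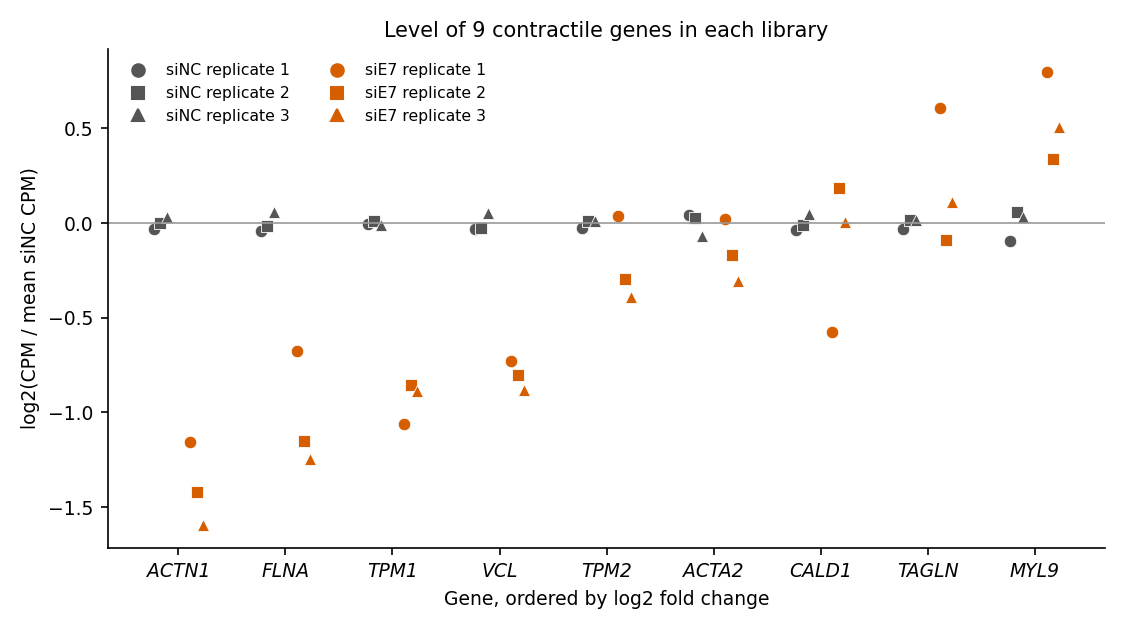
Level of the 9 tested contractile genes in each library, as the log2 of the library's CPM over the mean CPM of the siNC libraries (vertical axis), with the genes ordered by log2 fold change along the horizontal axis. Grey symbols are siNC and orange symbols siE7, and circle, square and triangle are replicates 1, 2 and 3. The siE7 points of ACTN1, FLNA, TPM1 and VCL lie below all siNC points and those of MYL9 above. In TPM2, TAGLN and CALD1, and also in FLNA and MYL9, the circle of siE7 replicate 1 is far from the other siE7 points.

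The other members did not pass the test. TPM2 (ENSG00000198467.16, chromosome 9, 35681992 to 35690056, minus strand), which encodes beta-tropomyosin, had 11032, 11292 and 11310 CPM with siNC and 11527, 9148 and 8569 CPM with siE7. siE7 replicate 1 lay above every siNC library and the other siE7 libraries below them, so that the log2 fold change was -0.20 (standard error 0.12, edgeR adjusted p = 0.23). Without siE7 replicate 1 it was -0.40, and TPM2 was called (edgeR adjusted p = 3.0e-07).

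CALD1 (ENSG00000122786.20, chromosome 7, 134744252 to 134970729, plus strand) encodes caldesmon, which binds actin, tropomyosin and myosin and restrains the motor. It was measured at 213, 217 and 226 CPM with siNC and at 147, 248.5 and 219 CPM with siE7, the groups overlapping and siE7 replicate 1 the lowest of the 6 libraries. Its log2 fold change was -0.10 (standard error 0.17, edgeR adjusted p = 0.68), and it was 0.03 without siE7 replicate 1 and 0.08 without composition scaling, so its sign was not fixed.

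ACTA2 (ENSG00000107796.13, chromosome 10, 88935074 to 88991339, minus strand), the alpha-actin of smooth muscle and of myofibroblasts, had 8.79, 8.69 and 8.14 CPM with siNC and 8.67, 7.61 and 6.90 CPM with siE7. The groups overlapped through siE7 replicate 1, and the log2 fold change was -0.14 (standard error 0.17, edgeR adjusted p = 0.53), or 0.02 without composition scaling and -0.30 without siE7 replicate 1 (edgeR adjusted p = 0.077). ACTA2 shares 6.9% of its exon bases with FAS on the other strand, which was at 2.90 CPM on average. TAGLN (ENSG00000149591.17, chromosome 11, 117199370 to 117207464, plus strand) encodes transgelin, an actin-binding protein of smooth muscle. Its level was 25.7, 26.6 and 26.6 CPM with siNC and 40.1, 24.7 and 28.4 CPM with siE7, with siE7 replicate 1 above and siE7 replicate 2 below all others. The log2 fold change was 0.24 (standard error 0.17, edgeR adjusted p = 0.30) and -0.05 without siE7 replicate 1. TAGLN shares 34.1% of its exon bases with PCSK7 on the other strand, which was at 89.1 CPM on average, and since it is not stated whether counting used the strand, reads of this overlap may have been given to either gene.

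CNN1 (ENSG00000130176.8, chromosome 19, 11538767 to 11550323, plus strand), which encodes the smooth muscle calponin, had 1, 0 and 0 counts with siNC and 0, 3 and 0 counts with siE7. It failed the filter, and no difference was detectable at this depth. The members best known from smooth muscle, CNN1, ACTA2 and TAGLN, were also the lowest per length.

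Levels were compared between genes as CPM per kilobase of exon, over the joined exons of all annotated transcripts. The mean order with siNC was TPM2 at 3522, ACTN1 at 352, FLNA at 201, TPM1 at 27.7, CALD1 at 22.4, VCL at 17.3, MYL9 at 8.45, TAGLN at 4.01, ACTA2 at 1.52 and CNN1 at 0.0048 CPM per kb. The library values of neighbours in this order did not overlap. With siE7 the means were TPM2 3063, ACTN1 135, FLNA 100.3, CALD1 20.9, TPM1 14.5, MYL9 12.5, VCL 9.88, TAGLN 4.74, ACTA2 1.37 and CNN1 0.0128 CPM per kb. In that group the ranges of ACTN1 (117 to 158) and FLNA (84.8 to 126), of CALD1 (15.0 to 25.4) and TPM1 (13.3 to 15.3), and of TPM1 and MYL9 (10.7 to 14.7) overlapped. Within each siE7 library, however, ACTN1 lay above FLNA and CALD1 above TPM1, and of these neighbours TPM1 and MYL9 alone changed places between libraries. MYL9 stood below VCL in every siNC library and above it in the mean of siE7. With the longest transcript as the length, TPM1 stood above CALD1 in the means of both groups.

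The promoter sequences of the members were searched for the CArG box, an element of 10 bases with 6 bases of A or T between a pair of C and a pair of G. The search covered 250 bases before to 50 bases after each start in the RefSeq promoter table (GRCh38.p14), and because the pattern reads the same on both strands a single search covers both. A near match kept both pairs and had a C or G at 1 of the 6 middle bases. Of all 35116 promoters 1.29% held an exact box and 8.13% an exact or near one. The table held promoters of 8 members (not TAGLN and MYL9). An exact box was found for 2 of these 8 members, FLNA and ACTN1 (in 1 of its 4 promoters). Among the 10529 tested genes with a promoter entry 1.44% had an exact box. The members were listed as known targets of SRF, so these shares are descriptive only. ACTN1 and FLNA were DEGs, FLNA only just, while TPM1 and VCL were called lower as well and had no box in their windows. ACTA2 had near boxes only, both in 1 of its promoters, and CALD1 a near box in 1 of 4, and the windows of CNN1, TPM1, TPM2 and VCL held none. The windows are shown for the DEGs and for ACTA2, with the box in capitals and 30 bases to each side, on the strand of the gene. The boxes start 171 bases before the start in ACTN1, 94 in FLNA, and 121 and 71 in ACTA2. The start of FLNA is the outermost one annotated for the gene in GENCODE, whereas that of ACTN1 lies 1874 bases and that of ACTA2 38566 bases inside the gene, so these boxes belong to internal starts.
ACTN1, exact box, chr14:68977698-68977767, minus strand: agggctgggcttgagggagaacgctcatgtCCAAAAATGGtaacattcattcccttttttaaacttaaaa
FLNA, exact box, chrX:154374689-154374758, minus strand: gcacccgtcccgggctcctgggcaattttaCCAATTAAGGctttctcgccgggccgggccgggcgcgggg
ACTA2, upstream near box, chr10:88952855-88952924, minus strand: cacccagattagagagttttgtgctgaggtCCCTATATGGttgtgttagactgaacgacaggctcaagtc
ACTA2, downstream near box, chr10:88952805-88952874, minus strand: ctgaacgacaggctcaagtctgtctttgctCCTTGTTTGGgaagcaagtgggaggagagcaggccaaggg
A match describes the letters of these windows and does not show binding, and windows without a match say nothing of SRF at those genes.

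Most relatives of the members within their protein families fell. Of 14 tested paralogs 10 were called lower and 2 higher with siE7 (background 16.0% lower and 18.0% higher), and the median log2 fold change was -0.63. Without siE7 replicate 1, 12 were lower and 2 higher, beside 29.5% and 28.9% of all tested genes. The cytoplasmic actins, which make up nearly all actin of an epithelial cell, both fell. ACTB went from 6369 to 6574 CPM with siNC to 2921 to 4047 CPM with siE7 (log2 fold change -0.97, edgeR adjusted p = 3.1e-04), and ACTG1 from 6030 to 6417 CPM to 2970 to 3896 CPM (-0.91, edgeR adjusted p = 2.7e-04). ACTC1 and ACTG2, actins of heart and of visceral smooth muscle, failed the filter, with at most 0.203 CPM in a library.

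The non-muscle calponins fell where CNN1 was nearly silent. CNN2 had 135 to 141 CPM with siNC and 50.4 to 69.5 CPM with siE7 (log2 fold change -1.25, edgeR adjusted p = 6.4e-05), and CNN3 had 77.6 to 82.8 and 36.5 to 42.6 CPM (-0.99, edgeR adjusted p = 8.9e-05). ACTN4, the other non-muscle alpha-actinin, fell by 0.73 on the log2 scale (edgeR adjusted p = 3.6e-04), and the muscle form ACTN3 rose by 2.45 from levels of 0.0379 to 0.200 CPM to 0.472 to 0.556 CPM (edgeR adjusted p = 0.012). FLNC, a filamin of muscle, had a log2 fold change of -0.24 (edgeR adjusted p = 0.22), and it was called without siE7 replicate 1 (-0.46, edgeR adjusted p = 7.4e-08).

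TAGLN2 and TAGLN3, relatives of transgelin, had log2 fold changes of -0.38 and -1.07 (edgeR adjusted p = 0.031 and 0.047), and both calls were lost without composition scaling (edgeR adjusted p = 0.088 and 0.094). TAGLN3 was low, at 0.652 to 2.92 CPM, and its groups overlapped. Among the myosin light chains, MYL12B, a regulatory light chain like MYL9, fell from 171 to 189 CPM to 55.6 to 72.7 CPM (log2 fold change -1.43, edgeR adjusted p = 1.7e-05). MYL12A, its close relative, fell by 0.54 (edgeR adjusted p = 0.0028), and the essential light chain MYL6 had -0.09 (edgeR adjusted p = 0.57), or -0.26 without siE7 replicate 1, where it was called (edgeR adjusted p = 1.9e-04). MYL9 thus rose in the same libraries in which the other regulatory light chains fell.

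TPM4, a cytoskeletal tropomyosin, went against TPM1. Its level was 653, 641 and 696 CPM with siNC and 1620.0, 1709 and 1757 CPM with siE7, a 2.56-fold rise without overlap (log2 fold change 1.35, standard error 0.10, edgeR adjusted p = 6.0e-06). TPM3, a further tropomyosin, fell by 0.43 on the log2 scale (edgeR adjusted p = 0.0062). Members of the actin, alpha-actinin, tropomyosin and light chain families are alike in sequence and some have pseudogenes, and where the counting could divide reads among them the split between relatives is uncertain.

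**Figure D2:**
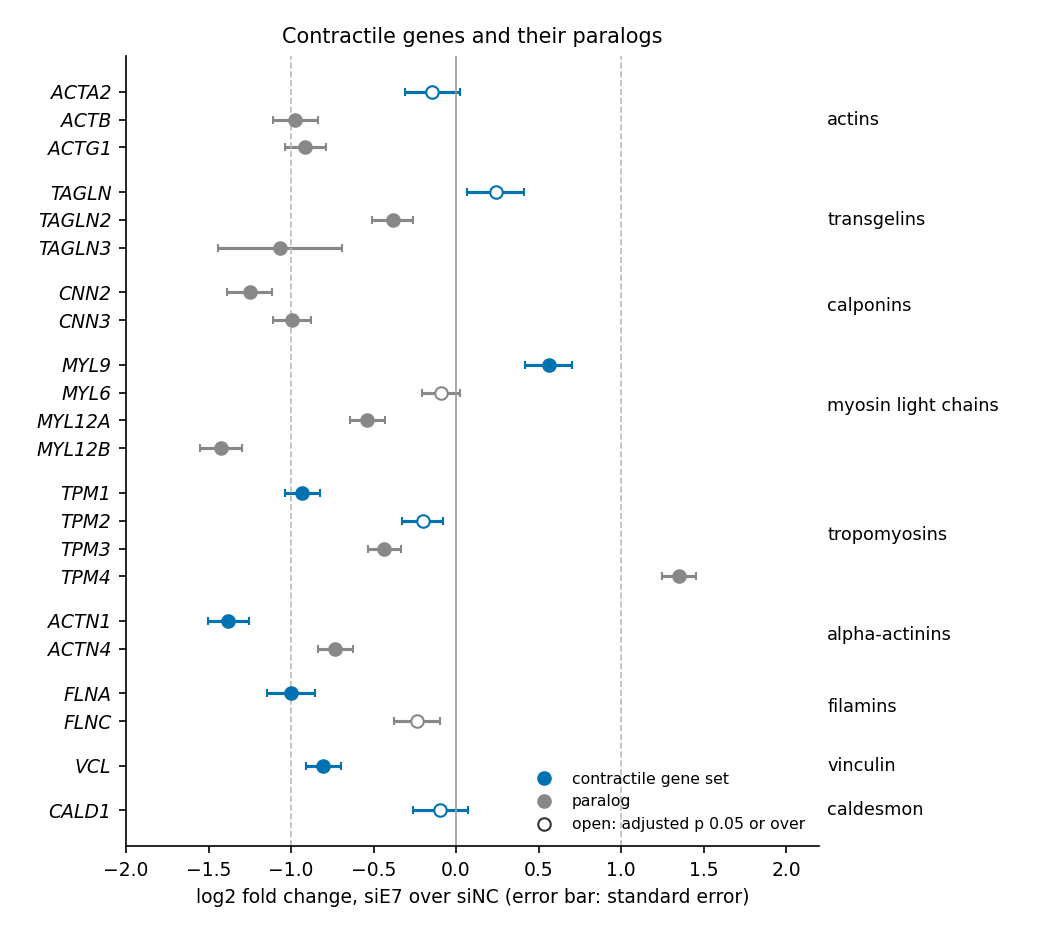
Log2 fold change of siE7 over siNC (horizontal axis) for the contractile genes (blue) and their tested paralogs (grey), grouped by protein family, with bars of 1 standard error, filled symbols for adjusted p under 0.05 and dashed lines at the DEG limits. ACTN3, at 2.45, is not drawn. Most families lie left of 0, and TPM4 at 1.35 and MYL9 at 0.56 lie to the right.

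The shares of each family were computed from CPM per kilobase, so that relatives could be compared. Of the tropomyosin pool TPM2 held 90.8% ± 0.254 (SD, n = 3) with siNC and 89.5% ± 1.64 with siE7, and its libraries overlapped between the groups (exact permutation p = 0.40). The share of TPM1 went from 0.714% ± 0.0112 to 0.433% ± 0.0854 and that of TPM4 from 1.38% ± 0.0526 to 4.08% ± 0.698, with no overlap in either (exact permutation p = 0.10 each, the smallest possible). TPM4 was thus 1.33% to 1.44% of the pool in the siNC libraries and 3.30% to 4.66% in the siE7 libraries.

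ACTN1 made up 51.9% ± 0.890 of the alpha-actinin pool with siNC and 40.6% ± 2.2 with siE7, and ACTN4 took the rest but for traces. With the longest transcript as the length ACTN1 made up 69.8% and 59.4%, so by that length it stayed above ACTN4 in both groups. Over the joined exons the pool itself fell from 679 ± 22.0 to 332 ± 33.4 CPM per kb. ACTA2 was 0.0506% ± 0.0029 of the actin pool with siNC and 0.0885% ± 0.0071 with siE7, while the pool went from 3004 to 1564 CPM per kb, so the larger share of ACTA2 stood beside a level that did not pass the test. In both of these the groups did not overlap (exact permutation p = 0.10). A pool of the regulatory light chains was added after their values had been seen. In it MYL9 went from 5.12% ± 0.242 to 14.3% ± 3.38, MYL12A from 32.6% to 42.2% and MYL12B from 62.3% to 43.5%. With the longest transcript as the length the shares became 2.71% and 7.15% for MYL9, 51.7% and 63.0% for MYL12A, and 45.6% and 29.9% for MYL12B. The direction of each was kept, but the order of the means of MYL12A and MYL12B turned with siNC and with siE7.

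SRF itself was measured at 109.7, 108 and 117 CPM with siNC and 171, 127 and 123 CPM with siE7. All siE7 libraries were above the siNC libraries, but the log2 fold change of 0.33 did not pass the test (standard error 0.14, edgeR adjusted p = 0.080). It passed without composition scaling (0.49, edgeR adjusted p = 0.0077), and without siE7 replicate 1 it was 0.11 (edgeR adjusted p = 0.11). Of its cofactors, MRTFB had 16.9, 14.9 and 15.0 CPM with siNC and 7.79, 8.99 and 8.67 CPM with siE7, and fell 1.84-fold (log2 fold change -0.88, edgeR adjusted p = 0.0012). MRTFA had 50.2, 45.8 and 52.2 CPM with siNC and 48.9, 35.4 and 33.5 CPM with siE7 (-0.33, edgeR adjusted p = 0.11), and it was called without siE7 replicate 1 (-0.58, edgeR adjusted p = 3.8e-08). MYOCD, the cofactor of smooth and cardiac muscle, was not found among the genes of the count table and so was not analysed. ELK3, a ternary complex factor, fell by 0.77 on the log2 scale (edgeR adjusted p = 0.0032). Of the 7 tested genes of SRF and its cofactors 2 were called lower and 0 higher, beside 16.0% and 18.0% of all tested genes, with a median of -0.32. With siE7 replicate 1 left out, 4 were called, all lower, beside a background of 29.5% lower.

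Of the genes that act on the myosin motor, single values are given without a count. MYLK, the kinase that phosphorylates the regulatory light chains in response to calcium, had 76.5, 79.7 and 78.8 CPM with siNC and 19.9, 21.5 and 21.2 CPM with siE7 (log2 fold change -1.91, standard error 0.11, edgeR adjusted p = 1.0e-06). PPP1R12A, the targeting subunit of the phosphatase that removes this phosphate, fell as well, from 25.8 to 32.4 CPM to 9.75 to 14.9 CPM (-1.16, edgeR adjusted p = 6.1e-04). DAPK3, another kinase of the light chains, rose by 0.70 (edgeR adjusted p = 0.0022). The heavy chains MYH9 and MYH10, named after their values were seen, fell by 0.62 and 0.47 (edgeR adjusted p = 0.0052 and 0.0056).

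Of 24 tested genes of focal adhesions and stress fibres 6 were called lower and 2 higher, with a median of -0.21, while 16.0% of all tested genes were lower and 18.0% higher. Without siE7 replicate 1 they numbered 15 lower and 2 higher, while all tested genes went to 29.5% lower and 28.9% higher. TNS1, which encodes the adhesion protein tensin-1, rose from 0.801 to 1.54 CPM to 4.32 to 5.22 CPM (log2 fold change 2.19, edgeR adjusted p = 1.9e-04). ENAH, which promotes actin filament elongation, PDLIM7, a stress fibre adaptor, and PARVA, which binds integrin-linked kinase to actin, fell by 0.85, 0.78 and 0.77 on the log2 scale (edgeR adjusted p = 9.4e-04, 0.0010 and 0.0012). VCL and ACTN1, which fell, are not in this list. With all libraries 33.3% of the list was called, beside 34.0% of all tested genes, and most of it did not pass the test.

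Of 13 other targets of MRTF and SRF 9 were called lower and 1 higher, with a median of -0.68 and the same background of 16.0% lower and 18.0% higher. Without siE7 replicate 1, 10 were lower and 2 higher (background 29.5% and 28.9%). MICAL2, an actin-oxidising enzyme that feeds into SRF signalling, had 159 to 161 CPM with siNC and 66.3 to 81.9 CPM with siE7 (log2 fold change -1.13, edgeR adjusted p = 3.9e-05). CCN1, a matricellular protein, fell by 1.12 (edgeR adjusted p = 4.8e-05) and SMTN, the actin-binding protein smoothelin, by 1.09 (edgeR adjusted p = 2.0e-04). ANKRD1 rose from 1.66, 1.96 and 2.23 CPM to 10.5, 16.7 and 19.6 CPM (2.99, edgeR adjusted p = 1.2e-05). CCN1 and ANKRD1 are both also known targets of YAP, and they moved in opposite directions here.

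The immediate early genes reached through the ternary complex factors had 1 of 9 tested genes called lower and 2 higher, with a median of -0.11, where 16.0% and 18.0% of all tested genes were. The counts without siE7 replicate 1 were 3 lower and 2 higher (background 29.5% and 28.9%). EGR1 had 58.2, 57.7 and 61.6 CPM with siNC and 32.4, 24.3 and 20.3 CPM with siE7 (log2 fold change -1.21, edgeR adjusted p = 2.6e-04). FOSB rose from 0.561 to 1.70 CPM to 5.33 to 8.06 CPM (2.44, edgeR adjusted p = 2.8e-04) and JUNB from 135 to 141 CPM to 172 to 229 CPM (0.50, edgeR adjusted p = 0.011). JUNB shares 14.2% of its exon bases with HOOK2 on the other strand. HOOK2 had at most 56.9 CPM with siNC and at least 72.9 CPM with siE7. Since the use of strand in counting is not stated, reads of this overlap may have been given to either gene. No called gene named in these lists changed sign under another scaling of the libraries or under DESeq2.

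**Figure D3:**
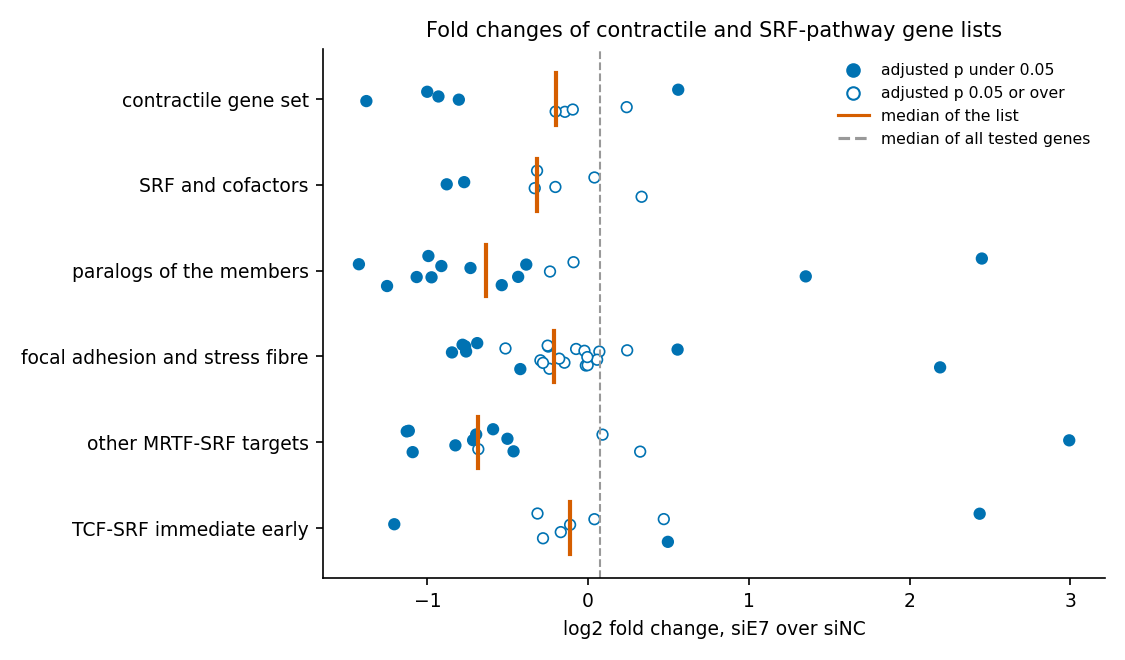
Log2 fold change of siE7 over siNC (horizontal axis) for each tested gene of the contractile set and of the other lists (rows), with filled points for adjusted p under 0.05, an orange bar at the median of each list and a dashed line at the median of all tested genes, 0.08. The medians of the paralogs (-0.63) and of the other MRTF-SRF targets (-0.68) lie farthest to the left, and single genes such as ANKRD1 at 2.99 lie far to the right.

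CArG boxes were also found at genes of these lists whose levels moved in opposite directions. The windows of the paralogs ACTG1, CNN2 and TPM4, of MYLK and SMTN, and of SRF itself, which holds a pair of boxes close to its start, are shown because they set genes that fell beside genes that did not. The box of each is exact, in capitals, in the RefSeq sequence of GRCh38.p14. The starts of MYLK, SMTN and ACTG1 lie 263784, 20891 and 11048 bases inside the gene from its outermost annotated start, and the counts per gene do not tell the transcripts of these starts from others.
ACTG1 (fell), chr17:81512854-81512923, minus strand: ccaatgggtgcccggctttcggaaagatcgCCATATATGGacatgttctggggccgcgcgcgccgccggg
CNN2 (fell), chr19:1026489-1026558, plus strand: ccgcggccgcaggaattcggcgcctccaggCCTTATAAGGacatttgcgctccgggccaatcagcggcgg
MYLK (fell), chr3:123620603-123620672, minus strand: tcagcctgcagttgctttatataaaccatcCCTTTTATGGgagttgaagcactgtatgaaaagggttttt
SMTN (fell), chr22:31084922-31084991, plus strand: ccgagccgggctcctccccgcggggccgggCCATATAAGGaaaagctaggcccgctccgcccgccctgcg
TPM4 (rose), chr19:16067335-16067404, plus strand: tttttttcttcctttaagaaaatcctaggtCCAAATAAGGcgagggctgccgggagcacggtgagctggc
SRF (not called), chr6:43171209-43171278, plus strand: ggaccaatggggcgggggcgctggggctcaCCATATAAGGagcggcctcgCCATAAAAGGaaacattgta
An exact box was found for 6 of the 16 paralogs with a promoter entry, and an exact box was present at 3 of 12 of the other MRTF-SRF targets. The share among tested genes with a promoter entry was 1.44%. These targets were listed as known targets of SRF, and the paralogs as relatives of such genes, so the shares are descriptive only. A gene with more promoters was also searched over more windows. Of these paralogs ACTG1, CNN2 and TPM4 were tested for expression, whereas the muscle actins ACTA1, ACTC1 and ACTG2 were not. Among 10529 tested genes with a promoter in the table, 17.0% were called lower and 17.6% higher. Among the 152 of them with an exact box 26.3% were called lower and 17.8% higher, with a median log2 fold change of -0.04 beside 0.06. With near boxes included, 18.5% of 1012 genes were lower and 18.4% higher.

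The genes most like ACTN1, the member of largest change, over the 6 libraries were HR, FYCO1 and PAK6, with Pearson's r of log2 CPM of 0.9996, 0.9994 and 0.9994. These values describe 6 libraries in 2 groups and share the difference between the groups. PAK6, a p21-activated kinase, had 77.4, 79.6 and 83.7 CPM with siNC and 25.6, 19.6 and 17.8 CPM with siE7 (log2 fold change -1.93), HR, a corepressor of nuclear receptors, -1.37, and FYCO1, an adaptor of vesicle transport, -0.81.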

How the data were processed

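Whole-number read counts per gene in 3 siNC and 3 siE7 libraries of SCC-9 cells were used as deposited by the authors, without normalization. Stranded mRNA libraries were sequenced as read pairs. The submitters' processing notes name HISAT2, DESeq2 and GRCh38. The counting program, its annotation and its use of strand are not given in the sources used here. All columns were mapped to samples by their titles. The filterByExpr filter and TMM factors of edgeR 4.0.16 (R 4.3.3) were applied, and groups were compared by glmQLFit and glmQLFTest with robust dispersions and Benjamini-Hochberg adjustment over 14661 genes. The standard error is the log2 fold change over the root of F. For permutation tests of gene levels 0.02 CPM was added before log2, and those of pool shares used the percentages without log2. The code was tested on simulated data. Positions, exon lengths and overlaps came from GENCODE 44 on GRCh38, matched for 25283 of 25349 identifiers. The members and lists were chosen with earlier results of these data known. Named were all members, MKI67, SRF, the MRTF genes and MYOCD, the tested paralogs, up to 4 called genes of largest change per other list, and the 3 genes most like the member of largest change. MYH9, MYH10 and DCN were named after their values were seen. The counts of 1 further list, 1 gene of it that the rule names, 1 paralog and the pool it belongs to are not reported here. Alternatives were DESeq2 1.42.0, other scalings and filters, glmTreat, a replicate block, each library left out, and the longest transcript as length. For shares of a pool, that length and the libraries left out were chosen after seeing the data. Python 3.11.15, numpy 2.4.6, pandas 2.3.3 and matplotlib 3.10.9 were used.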

Additional observations from a re-analysis of the deposited data

How the results depend on the processing

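ACTN1, TPM1, VCL and FLNA kept their direction and their call under the 13 alternatives other than glmTreat, and MKI67 lay between -3.27 and -3.04 in these. The glmTreat fit, which tests against a log2 fold change of 1, was read for counts of DEGs only. The number of member DEGs was 1 in place of 2 with upper-quartile factors, without composition scaling, with at least 10 counts in every library and with glmTreat, and 1 to 2 with a library left out, FLNA being lost each time. Without composition scaling the median log2 fold change of all genes shifted by 0.17, 4030 genes were called higher in place of 2639, 76.2% of the DEGs were higher in place of 60.4%, and the log2 fold changes of ACTA2 and CALD1 turned to 0.0192 and 0.0837. With glmTreat 337 genes were DEGs (153 higher and 184 lower) in place of 1792. With a library left out, 3153 to 8765 genes were called (1598 to 4343 higher, 1552 to 4422 lower), the highest without siE7 replicate 1. The called genes then numbered 2 to 4 for SRF and its cofactors, 6 to 17 for focal adhesion and 2 to 5 for the immediate early list, again with the highest without siE7 replicate 1. The log2 fold changes ranged from 0.37 to 0.66 for MYL9, -0.0465 to 0.379 for TAGLN, -0.40 to -0.12 for TPM2 and -0.258 to 0.0349 for CALD1. The replicate numbers did not pair the samples (correlations of deviations -0.039, -0.021 and -0.052), and a replicate block called 4947 genes in place of 4990. With the longest transcript as length, the siE7 minus siNC differences in share became, in percentage points, -0.514 for TPM1, -1.67 for TPM2, 3.31 for TPM4, 0.0451 for ACTA2, 4.44 for MYL9, 11.3 for MYL12A and -15.7 for MYL12B, from -0.281, -1.36, 2.69, 0.0379, 9.22, 9.62 and -18.8. For ACTN1 the difference in share was -10.4 in place of -11.3 percentage points. The causes were not tested. Counts of 3 or fewer, as for CNN1, allow no comparison.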

Other observations

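MYH11, the smooth muscle myosin heavy chain, had 107, 109.5 and 113 CPM with siNC and 162, 178 and 166 CPM with siE7 (log2 fold change 0.62, edgeR adjusted p = 0.0010). MYH11 shares 6.0% of its exon bases with NDE1 on the other strand, which was at 36.1 CPM on average. SYNPO2, an actin-bundling protein of smooth muscle, rose from 0.561 to 0.719 CPM to 0.843 to 2.00 CPM (log2 fold change 1.14, edgeR adjusted p = 0.042), and DESeq2 did not call it (adjusted p = 0.088). DCN, the proteoglycan decorin of fibroblasts, failed the filter, with 0 to 0.0757 CPM in the siNC and 0.270 to 0.622 CPM in the siE7 libraries. It was called higher by DESeq2 (log2 fold change 3.39, adjusted p = 0.022) and by edgeR with no filter on low counts (3.30, adjusted p = 0.0039), without siE7 replicate 1 (3.50, adjusted p = 9.0e-04) and without each of the siNC libraries (2.79 to 4.14, adjusted p from 0.022 to 0.038). CDH1, the epithelial cadherin that vinculin links to actin through catenins, had 167 to 176 CPM with siNC and 73.4 to 98.0 CPM with siE7 (log2 fold change -1.03, edgeR adjusted p = 1.4e-04). EPCAM, an epithelial adhesion molecule, had 61.2 to 63.5 CPM with siNC and 28.0 to 43.3 CPM with siE7 (log2 fold change -0.77, edgeR adjusted p = 0.0029), and SFN, the epithelial 14-3-3 protein stratifin, had 6672 to 7397 and 4170.3 to 5321 CPM (-0.61, edgeR adjusted p = 0.0025). KRT17, a keratin of stressed and tumour epithelium, rose from 1601 to 1844 CPM to 2474 to 3186 CPM (log2 fold change 0.70, edgeR adjusted p = 0.0013).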
